A study of Saccharomyces cerevisiae with 6 samples.

Results

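The transcript levels of wild-type budding yeast were ranked gene by gene on 2 arrays of the strain W303-1a, and the ranking was then read by gene function. Of 9335 probe sets on each array, 60 were controls, 6504 named 1 gene, 328 named several genes and 2443 named none. A probe set is a group of short oligonucleotides that reports 1 transcript. Taking the brightest single-gene probe set for each gene gave 5656 genes. The genes were ordered by the mean of their log2 intensities after both arrays had been put on one scale, and a percentile gives the place of a gene in that order, with 100 the brightest.

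The study hybridised 6 single-colour arrays, 2 for each of 3 strains, and its title concerns how a G-protein-coupled receptor sets cell size with glucose. The 2 arrays used here are of the wild-type strain, which carries no engineered deletion according to the labels. W303-1a is a haploid laboratory strain of mating type a, whose background carries mutant alleles of several marker genes. The RNA measured was total RNA. The growth medium, growth phase, temperature and cell density are not given in the labels, nor do they say whether the arrays came from separate cultures, so the spread between the arrays may be technical.

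A rapidly growing yeast cell spends a large share of its transcription on making ribosomes and on the enzymes of glycolysis, and the messages for both are long-lived and abundant. Glucose represses genes for the use of other carbon sources, for gluconeogenesis and for parts of respiration, and it determines which hexose transporters are made. Haploid cells of mating type a make a-specific gene products such as a-factor, hold the alpha-specific genes off, and keep the genes of meiosis and spore formation silent.

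The median deposited intensity was 562.9 on array 1 and 373.6 on array 2, and the brightest probe set read 33247.6 and 33703.0. After scaling, the median gene had a log2 intensity of 9.71 and the brightest 14.95. The lowest values were raised to a common floor of 3.58, and 120 genes (2.12%) lay at that floor on both arrays. Another 48 genes lay at it on array 1 only and 63 on array 2 only. With 1 group of 2 arrays no test of a difference was possible, so the values below are descriptions. The only spread at hand for each is the gap between its 2 arrays, which leaves out differences between probes.

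Across the 5656 genes, which are not independent replicates, Pearson's r between the arrays was 0.955 and Spearman's rho was 0.958. The median gap between the arrays was 0.39 on the log2 scale, and the SD of the difference was 0.71. More than 2-fold separated the arrays for 603 genes, which is 10.7% of all genes. Of these, 420 (7.43%) were higher on array 1 and 183 (3.24%) were lower on array 1. On the values as deposited, without any scaling between the arrays, the same counts were 1254 and 32. With median centring they were 460 and 149, and with quantile normalisation over all 6 arrays 423 and 188. More of the genes over 2-fold apart were thus higher on array 1 under each scaling tried. By any amount, after the scaling used here, 2431 genes (43%) were higher on array 1 and 3102 (54.8%) lower. A gap of more than 4-fold was present for 101 genes and of more than 8-fold for 23.

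**Figure D1:**
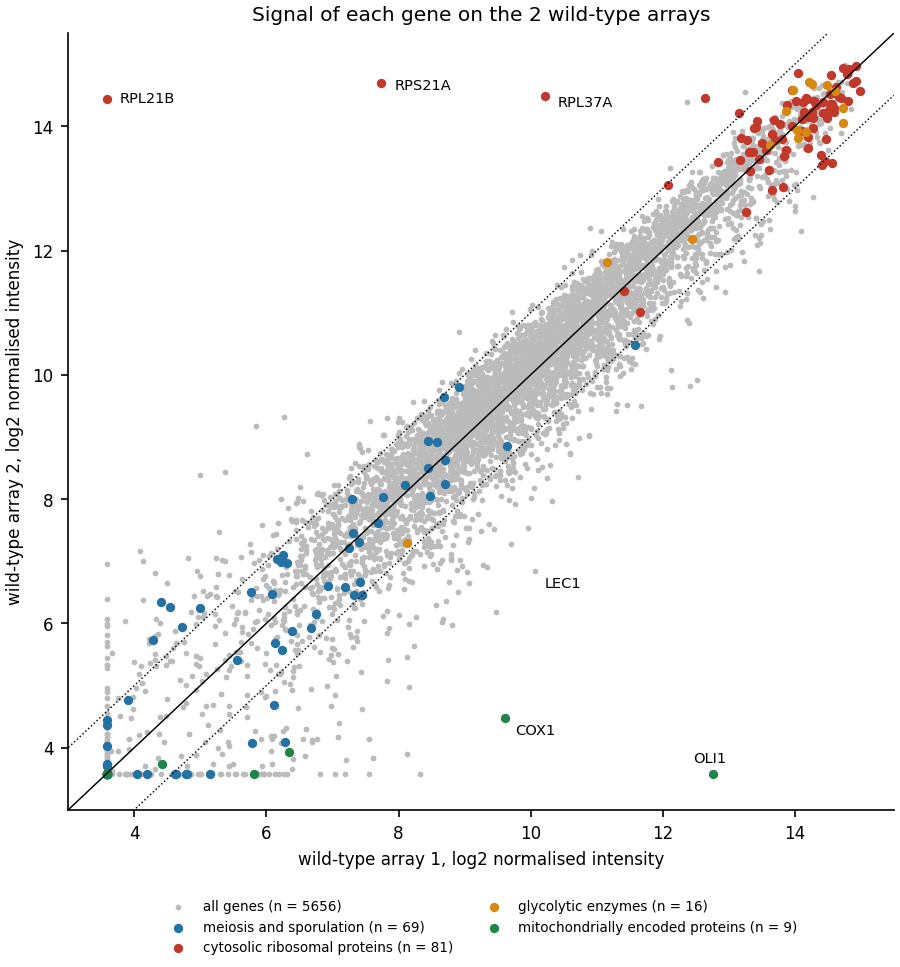
Each point is 1 gene, with its log2 normalised intensity on wild-type array 1 (x axis) and on wild-type array 2 (y axis); the solid line marks equal values and the dotted lines a 2-fold gap. Ribosomal protein and glycolytic genes gather at the upper end, meiosis, sporulation and mitochondrially encoded genes at the lower end, and RPL21B, RPS21A, RPL37A, OLI1, COX1 and LEC1 stand far from the line.

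The plot of array 1 against array 2 shows a cloud that narrows towards the bright end. Agreement depended on brightness: in the bottom 10% of genes 36.0% were more than 2-fold apart, against 4.07% in the top 10%. The median gap was 0.60 in the bottom 10% and 0.27 in the top 10%. Membership of the upper end was largely shared. Of the 565 genes in the top 10% of each array, 488 were shared by both, and the 100 brightest genes of each array had 68 in common.

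**Figure D2:**
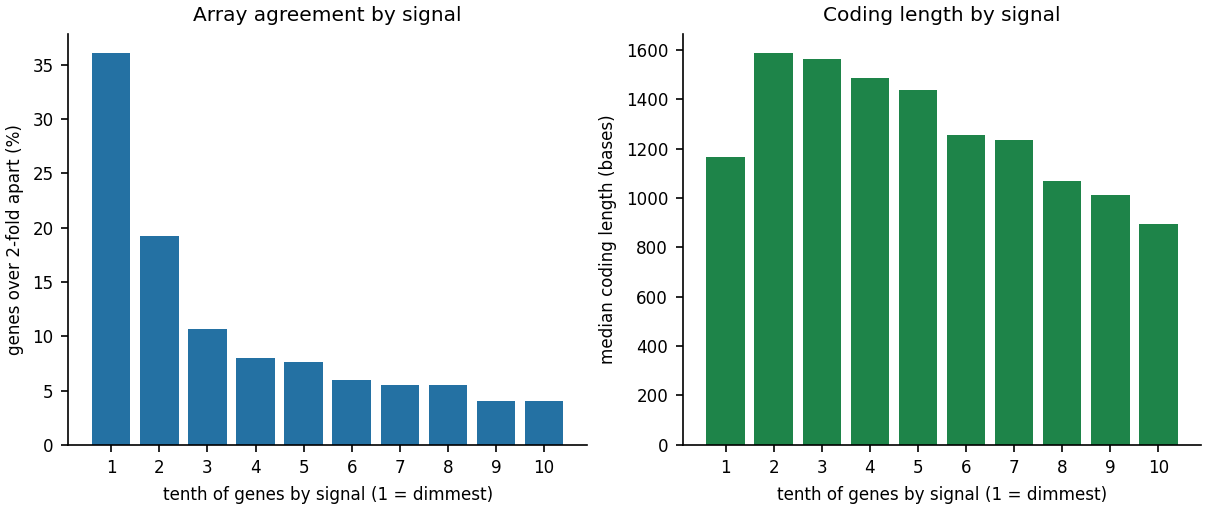
The left panel gives the percentage of genes more than 2-fold apart between the arrays in 10 equal groups of genes by signal, from 1 (dimmest) to 10 (brightest), and the right panel the median coding length of the protein-coding genes in the same groups, in bases. The share more than 2-fold apart is 36.0% in group 1 and 4.07% in group 10, and the median length is 1587 bases in group 2 and 894 bases in group 10.

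The brightness of a probe set depends on its probes as well as on the transcript, and intensities are not counted per length, so the order of single genes is an order of brightness. The size of this effect can be read from the 315 genes with more than 1 single-gene probe set. Their brightest and dimmest probe sets were separated by a median of 2.79 on the log2 scale. That median is 7.23 times the median gap between the arrays. For 244 of the 315 genes (77.5%) the separation was over 2-fold and for 113 over 16-fold. Functions are therefore described below by the counts and medians of whole gene lists, and single genes by their 2 values.

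The signal was concentrated in few genes. The 508 brightest genes, 9.0% of those ranked, held 50% of the summed normalised intensity. The 100 brightest held 16.5% of it on array 1 and 16.4% on array 2, and their lowest mean log2 intensity was 14.13. Among these 100 were 38 cytosolic ribosomal protein genes, 7 glycolytic genes, 6 genes of plasma membrane or vacuolar proton pumps and 5 cell wall mannoprotein genes. None of the 100 was more than 2-fold apart between the arrays (0 of 100, against 10.7% of all genes), a count that the choice by the mean of both arrays largely fixes. The means of the 40 brightest spanned only 0.50 on the log2 scale, and the median gap between arrays among them was 0.19, so neighbours in that order do not differ beyond their spread.

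RPL5, the ribosomal protein of the large subunit that carries the 5S ribosomal RNA, headed the order with 14.93 on array 1 and 14.97 on array 2. PMP2, a small proteolipid that accompanies the plasma membrane proton pump, followed with 14.76 and 15.00. Next came RPL16A with 14.82 and 14.93. PSA1, which makes GDP-mannose for the glycosylation of cell wall proteins, had 14.84 and 14.85. These 4 genes were high on both arrays. Beyond ribosomal proteins the brightest 40 took in ERG2 and ERG25 of ergosterol synthesis, the chaperone SSA2, the glucose transporter HXT3, the prolyl isomerase CPR1, the sulfhydrylase MET17 and the cell wall gene UTH1. They also held the mannose enzyme SEC53, the elongation factor YEF3, the phosphate transporter PHO84, the vacuolar pump subunit VMA3, the glutamine synthetase GLN1 and actin (ACT1).

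The functions were followed through 73 gene lists, which together cover 2030 of the 5656 genes. Lists can share genes. For 29 lists the median gene lay in the top 25% of all genes, for 11 in the bottom 25% and for 33 between. Over all genes, 25% lie at each end by definition and the median percentile is 50. The order of the lists was nearly the same on either array, with a Spearman's rho of 0.987 between the 73 list medians; the lists share arrays and some members. The median list moved by 2.12 percentile points between the arrays, the largest move was 13.0 points, and 15 lists moved by more than 5 points. No list had a median difference between arrays of more than 2-fold (0 of 73).

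**Figure D3:**
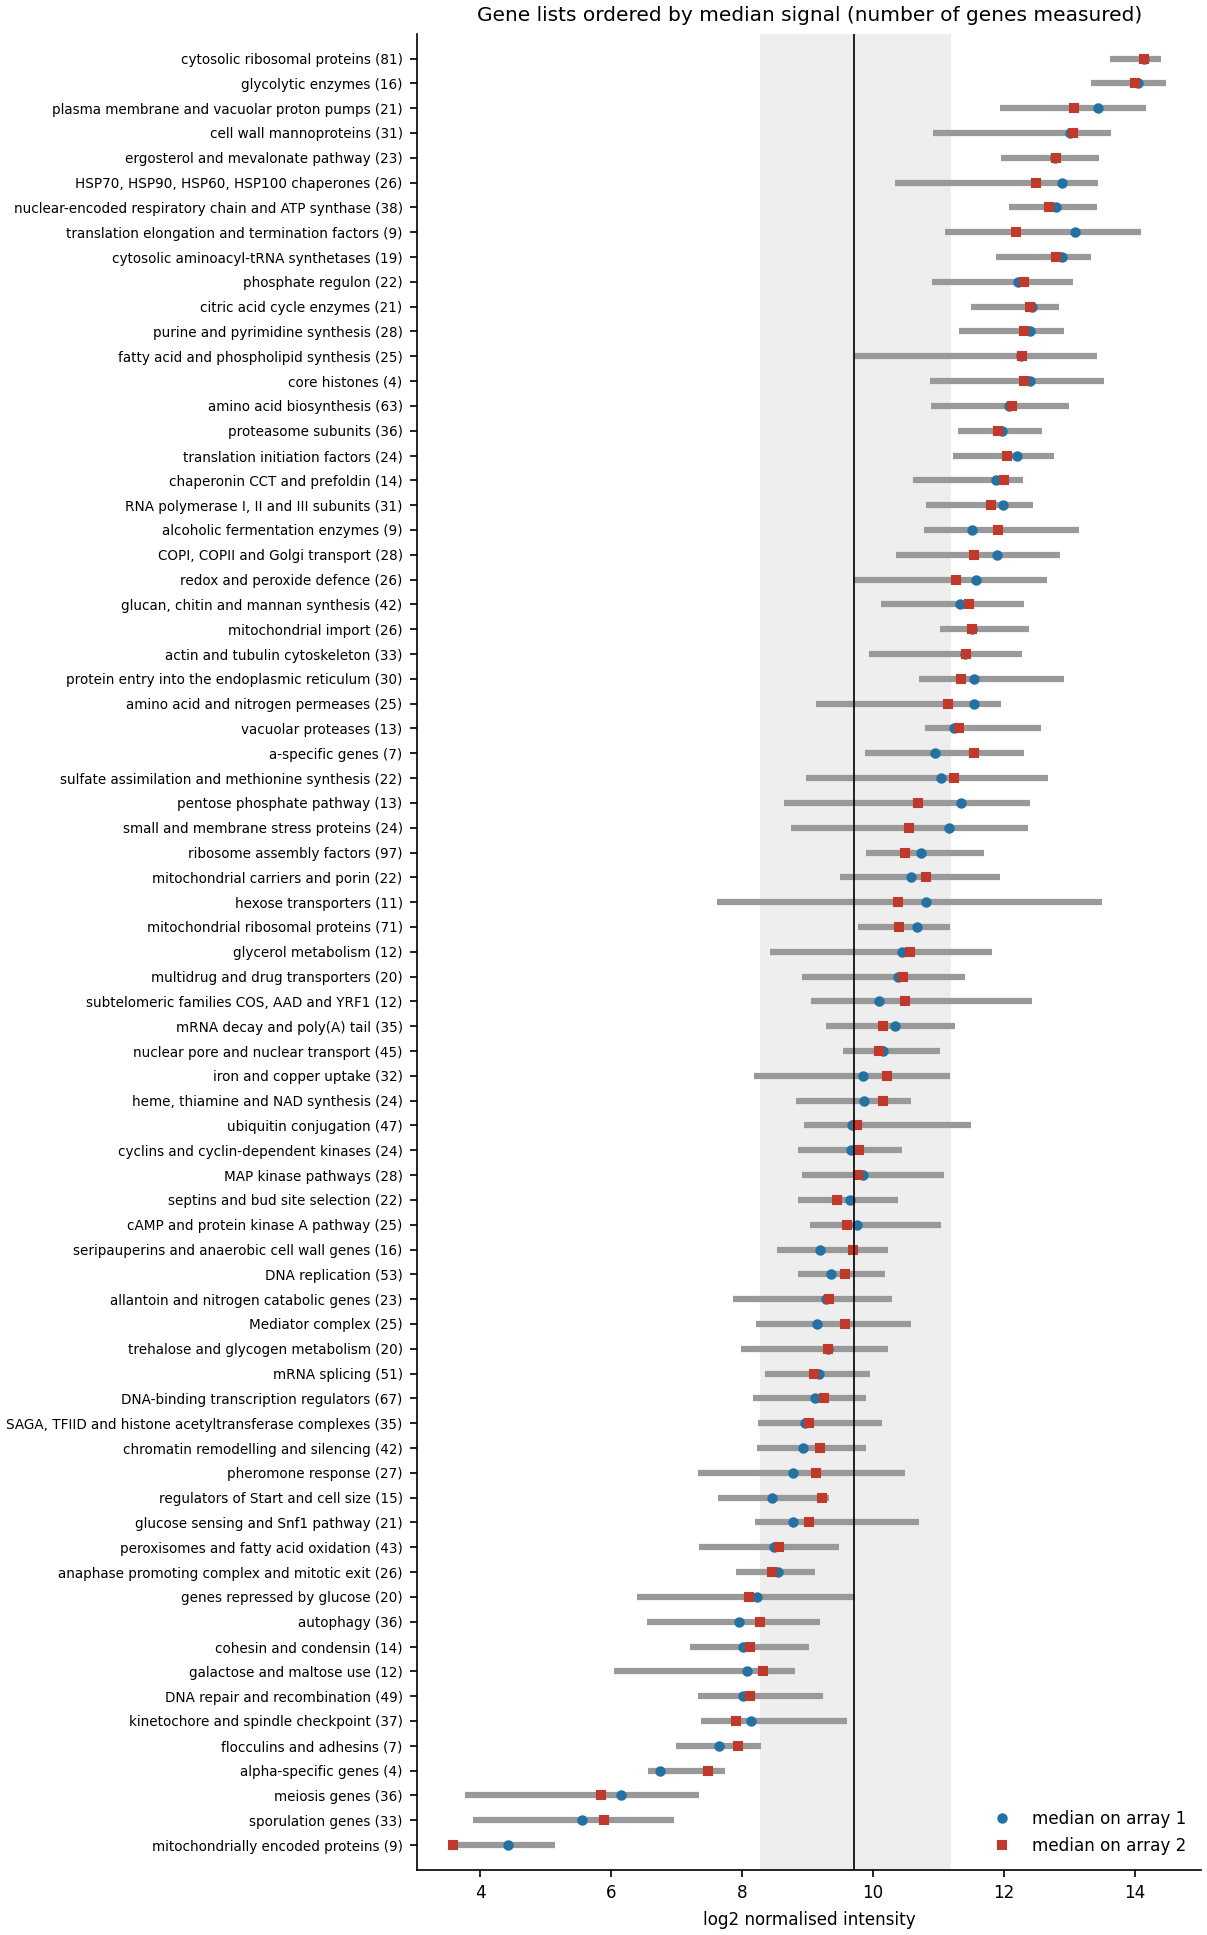
Each row is 1 gene list with the number of its genes measured, ordered by median signal; circles give the median log2 normalised intensity on array 1, squares that on array 2, and grey bars the quartiles of the list's genes. The vertical line marks the median of all genes at 9.71 and the shaded band the quartiles of all genes; cytosolic ribosomal proteins and glycolytic enzymes stand at the top, and meiosis, sporulation and mitochondrially encoded genes at the bottom.

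The plot of the 73 lists shows protein synthesis, glycolysis and the membrane and wall functions of growth at the upper end. Chromosome mechanics, autophagy, alternative carbon sources and differentiation lie at the lower end. Most gene lists of nuclear regulation sit below the line for all genes. Circles and squares nearly coincide in most rows, and their separation is plain in a few short lists such as the translation elongation and termination factors.

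Cytosolic ribosomal proteins, the protein components of the translating ribosome, were the brightest list. Of 81 measured genes, 80 lay in the top 25% and none in the bottom 25% (0 of 81), and the median percentile was 98.1. They made up 1.43% of the genes and held 10.5% of the summed signal on array 1 and 10.8% on array 2. Large and small subunits were alike, with median percentiles of 98.4 over 47 genes and 97.7 over 33 genes. After RPL5 and RPL16A the brightest were RPS1A, at 14.73 and 14.94, and RPL17B, at 14.93 and 14.73.

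The lower end of the ribosomal protein list was set mainly by array 1. RPL21B was at the floor of 3.58 on array 1 (deposited as 0) and 14.45 on array 2. RPS21A had 7.74 on array 1 and 14.71 on array 2. Both are bright on 1 array and dim on the other, so their means describe neither. RPL9A was moderately bright on both arrays, at 11.65 and 11.01. Of the 81 genes, 41 were higher on array 1 and 40 on array 2, and the median difference was 0.00. Of the same 81, 3 were more than 2-fold higher on array 1 and 5 more than 2-fold lower, against 7.43% and 3.24% of all genes.

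The factors that work with the ribosome followed. Translation elongation and termination factors had a median percentile of 90.5 over 9 genes, with 6 in the top 25%. YEF3, the fungal elongation factor that releases spent tRNA, had 14.71 on array 1 and 14.43 on array 2. HYP2, the translation factor eIF5A, had 13.83 and 14.37. Its paralogue ANB1, known to be expressed when oxygen is absent, had 9.51 and 9.75. HEF3, the close copy of YEF3, had 3.98 and 4.82, near the floor. In both pairs the main copy was the brighter on both arrays, with ANB1 at the middle of all genes and HEF3 at the bottom.

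Aminoacyl-tRNA synthetases of the cytosol, which charge tRNAs with amino acids, had a median percentile of 90.4, and 17 of 19 lay in the top 25%. FRS1 for phenylalanine had 13.92 on array 1 and 14.01 on array 2. The dimmest was CRS1 for cysteine, with 10.45 and 10.16. Translation initiation factors had a median percentile of 84.4, with 18 of 24 in the top 25%. CDC33, the cap-binding protein eIF4E, had 13.82 and 13.64, and TIF4632, one of the eIF4G scaffolds, had 8.36 and 7.87. The initiation list was bright as a whole, with TIF4632 below the median of all genes on both arrays.

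Factors that build ribosomes were less bright than the ribosome itself. Ribosome assembly factors had a median percentile of 67.3 over 97 genes, with 35 in the top 25% and 1 in the bottom 25%. NHP2 and NOP58, proteins of small nucleolar ribonucleoproteins, led with 14.34 and 14.47 and with 14.40 and 14.05. RRP36 was the dimmest, at 8.58 on array 1 and 6.87 on array 2. The subunits of RNA polymerases I, II and III had a median percentile of 82.9, with 21 of 31 in the top 25% and none in the bottom 25% (0 of 31). RPB8, shared by all these polymerases, had 13.70 and 14.15.

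Glycolytic enzymes, which convert glucose to pyruvate, formed the other list at the very top. Of 16 genes measured by their own probe sets, 14 lay in the top 25% and 2 in the bottom 25%, with a median percentile of 97.9. PGI1, the phosphoglucose isomerase, had 14.62 on array 1 and 14.58 on array 2. GPM1, the phosphoglycerate mutase, had 14.49 and 14.67. The pyruvate kinase CDC19 had 14.73 and 14.29. All of these were bright on both arrays.

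The steps between them were bright as well. FBA1, the aldolase, had 14.26 and 14.68, and TPI1, the triose phosphate isomerase, had 13.98 and 14.58. The enolases ENO2 and ENO1 had 14.21 and 14.72 and 14.73 and 14.06, in opposite order on the 2 arrays. PGK1 had 13.86 and 14.24, and TDH1, one of the glyceraldehyde phosphate dehydrogenases, had 14.17 and 13.91. The subunits of phosphofructokinase, PFK2 and PFK1, had 14.03 and 13.94 and 13.62 and 13.70. Both subunits were close to each other on both arrays.

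The enzymes that phosphorylate glucose differed in brightness. HXK2, the main hexokinase on glucose, had 14.05 on array 1 and 13.82 on array 2. The glucokinase GLK1 had 12.45 and 12.18, and HXK1, which is repressed by glucose, had 11.16 and 11.82. PYK2, the alternative pyruvate kinase, was dim at 8.13 and 7.30. The single-gene probe set of TDH3 lay at the floor on both arrays, deposited as 0.2 and 3.0. A probe set shared by TDH2 and TDH3 was among the brightest of all, at 14.96 and 15.03, so the position of TDH3 in the ranking is that of its own probe set only.

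**Figure D4:**
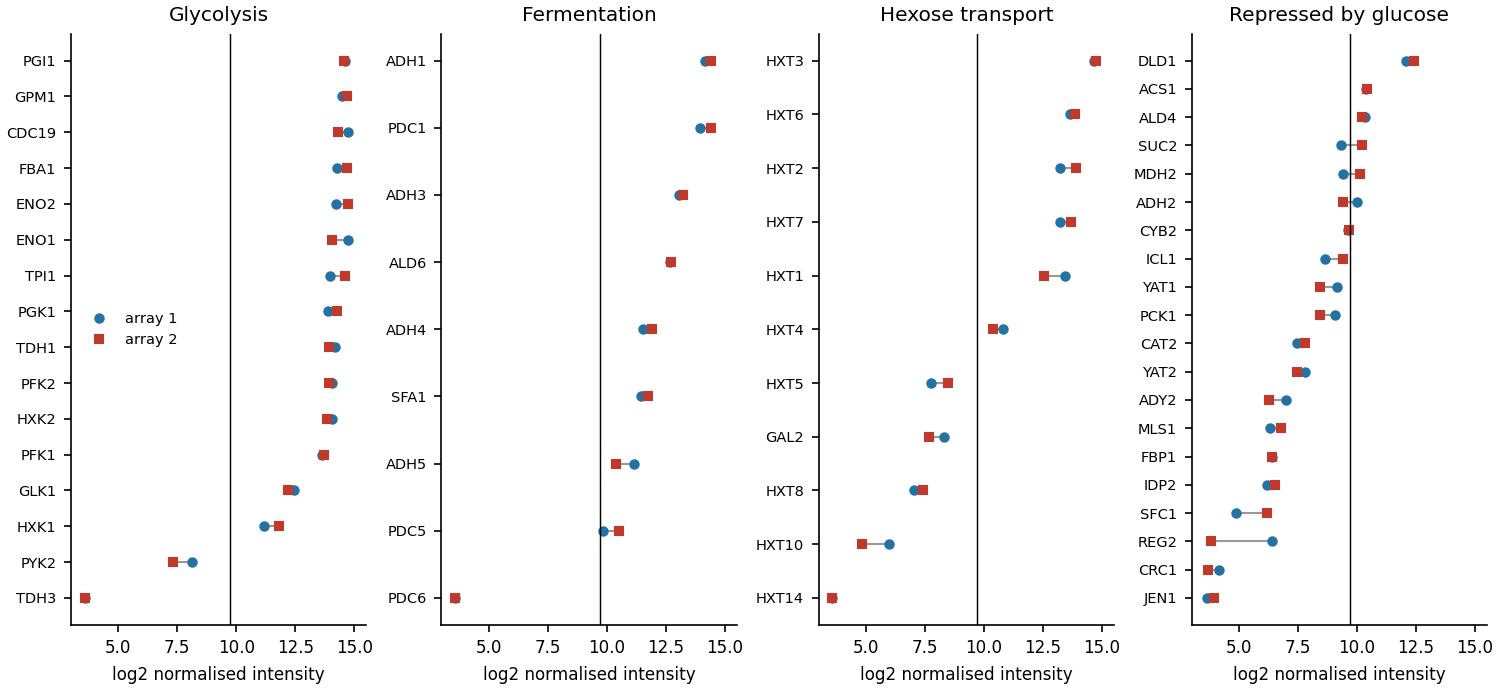
Each row is 1 gene, with its log2 normalised intensity on array 1 (circle) and array 2 (square) on the x axis, in panels for glycolysis, alcoholic fermentation, hexose transport and genes repressed by glucose; the vertical line marks the median of all genes at 9.71. Glycolytic genes lie far to the right except PYK2 and TDH3, the hexose transporters divide into bright and dim members, and most genes repressed by glucose lie left of the line.

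Alcoholic fermentation enzymes, which turn pyruvate into ethanol and acetate, had a median percentile of 81.6, with 6 of 9 in the top 25%. ADH1, the main alcohol dehydrogenase, had 14.16 on array 1 and 14.41 on array 2. The pyruvate decarboxylase PDC1 had 13.94 and 14.41. Its paralogue PDC5 had 9.84 and 10.51, and PDC6 lay at the floor on both arrays. The main isoenzymes were thus the bright ones. ADH3, the mitochondrial alcohol dehydrogenase, had 13.06 and 13.25, and the aldehyde dehydrogenase ALD6 had 12.66 and 12.72 on the brighter of its 2 probe sets. The percentile of ALD6 shifted by 66.2 points when its probe sets were averaged. ADH4 had 11.51 and 11.91, SFA1 11.44 and 11.75, and ADH5 11.15 and 10.39.

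The hexose transporters, membrane proteins that bring glucose into the cell, had the widest quartile range of the 73 lists, 7.61 to 13.50 on the log2 scale. Of 11 measured, 5 lay in the top 25% and 5 in the bottom 25%. HXT3, a low-affinity transporter, had 14.65 on array 1 and 14.72 on array 2. The low-affinity transporter HXT1, induced by high glucose, had 13.42 and 12.52. HXT2, made when glucose is low, had 13.21 and 13.87. HXT1 was higher on array 1 and HXT2 on array 2, and the gap for HXT1 was the larger.

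The high-affinity pair HXT6 and HXT7 read 13.63 and 13.86 and 13.22 and 13.68. Their probe sets carry a name ending that marks probes shared within a gene family, and the genes are near-identical copies, so their values are uncertain. HXT4 had 10.81 and 10.38. HXT5, known from slow growth, had 7.74 and 8.46, and the galactose transporter GAL2 had 8.31 and 7.67. HXT8 had 7.03 and 7.43 and HXT10 5.97 and 4.82. HXT14 lay at the floor on both arrays. With only plain probe set names kept, the median percentile of the hexose transporters was 22.1 in place of 65.5.

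Genes for gluconeogenesis, the glyoxylate cycle and other carbon sources that glucose represses were dim as a list. Of 20 genes, 10 lay in the bottom 25% and 1 in the top 25%, and the median percentile was 24.2. FBP1, the gluconeogenic fructose bisphosphatase, had 6.40 on array 1 and 6.38 on array 2. MLS1, the malate synthase, had 6.31 and 6.80, and JEN1, the lactate transporter, had 3.65 and 3.94. These genes were well below the median of all genes on both arrays. PCK1, the gluconeogenic carboxykinase, was less dim at 9.07 and 8.42, as was the isocitrate lyase ICL1 at 8.64 and 9.42.

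Within this list the upper end was held by DLD1, a mitochondrial lactate dehydrogenase, with 12.07 on array 1 and 12.39 on array 2. The acetyl-CoA synthetase ACS1 had 10.37 and 10.44, and the aldehyde dehydrogenase ALD4 had 10.35 and 10.21. Invertase, SUC2, had 9.33 and 10.22, and the malate dehydrogenase MDH2 had 9.42 and 10.12. ADH2, the alcohol dehydrogenase that uses ethanol, had 9.99 and 9.41, and CYB2, another lactate dehydrogenase, had 9.64 and 9.67. SUC2, MDH2, ADH2 and CYB2 lay near the median of all genes, and DLD1 far above it.

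The remaining members were dim. YAT1 and YAT2, carnitine acetyltransferases, had 9.15 and 8.45 and 7.80 and 7.44, and CAT2, of the same activity, had 7.47 and 7.79. ADY2 had a mean of 6.63, IDP2 6.20 and 6.54, and CRC1 4.16 and 3.71. SFC1, at 4.86 and 6.18, and REG2, at 6.40 and 3.82, were more than 2-fold apart, in opposite directions. Genes for galactose and maltose use had a median percentile of 21.5, with 7 of 12 in the bottom 25%. The galactokinase GAL1 had 3.58 and 4.07, at the floor on array 1, while the repressor GAL80 had 10.71 and 11.12.

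Respiration encoded in the nucleus was bright. Nuclear-encoded subunits of the respiratory chain and of ATP synthase had a median percentile of 90.5, with 33 of 38 in the top 25%. Complex III had a median percentile of 90.2 over 9 genes, complex IV 93.2 over 9 and ATP synthase 91.2 over 14. COX12 and COX8, small subunits of cytochrome oxidase, had 14.29 and 14.25 and 14.31 and 14.17. The paralogue COX5B, used when oxygen is low, had 9.56 on array 1 and 8.66 on array 2. CYC1, the main cytochrome c, had 13.77 and 13.90, and its alternative CYC7 had 9.33 and 8.25. NDE2, the minor external NADH dehydrogenase, was close to the floor at 3.58 and 4.89, and NDE1 had 13.65 and 13.86.

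Citric acid cycle enzymes had a median percentile of 87.7, with 18 of 21 in the top 25%. IDH2, a subunit of the isocitrate dehydrogenase, led with 13.60 on array 1 and 14.00 on array 2. CIT1, the mitochondrial citrate synthase, had 12.91 and 13.53, and CIT3 lay at the floor on both arrays. The cycle was bright except for CIT3, LSC2 (10.48 and 10.48) and SDH1, whose 11.23 and 10.40 lay on either side of the upper quartile of all genes.

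Proteins encoded in the mitochondrial genome gave the dimmest list. All 9 lay in the bottom 25% by their mean, 4 of them at the floor on both arrays, namely ATP8, COB, SCEI and VAR1. The median percentile was 3.15. The levels were uneven between the arrays: OLI1, a subunit of ATP synthase, had 12.77 on array 1 and 3.58 on array 2. COX1, the core subunit of cytochrome oxidase, had 9.62 and 4.47. COX3 had 6.34 and 3.92, ATP6 had 5.82 and 3.58 and COX2 had 4.42 and 3.73. Each of the 5 genes above the floor was higher on array 1. Mitochondrial messages of yeast carry no long poly(A) tails, and the priming used for labelling is unstated, so a low level and poor labelling cannot be told apart. All 19 mitochondrial protein-coding genes with a value, this list included, lay in the bottom 25%.

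Proteins that make and supply mitochondria lay between. Mitochondrial ribosomal proteins had a median percentile of 64.8 over 71 genes, with 18 in the top 25% and 5 in the bottom 25%. MRPL39 led with 12.89 and 12.66, and MRPS5 was the dimmest with 7.37 and 5.71. The mitochondrial ribosome list was thus well below the cytosolic one on both arrays, with medians of 10.68 and 10.40 on the log2 scale, against 14.14 and 14.14. The mitochondrial import machinery had a median percentile of 78.4, with 16 of 26 in the top 25%, led by TOM6 at 14.24 and 13.73. Carriers and porin had 66.6, from OAC1, the oxaloacetate carrier, at 14.51 and 13.63 down to CRC1.

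Biosynthetic pathways were mostly in the top 25%. Ergosterol and mevalonate enzymes, which make the membrane sterol of fungi, had a median percentile of 91.7, with 21 of 23 in the top 25%. ERG2 had 14.79 on array 1 and 14.70 on array 2, ERG25 14.53 and 14.54, and ERG11, the target of azole drugs, 14.45 and 14.53. HMG2, one of the copies of the rate-limiting reductase, was the dimmest with 10.69 and 9.78. Ergosterol genes were high on both arrays, and none lay in the bottom 25% (0 of 23).

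Fatty acid and phospholipid enzymes had a median percentile of 87.0, with 16 of 25 in the top 25%. ELO3, an elongase of very long chains, had 13.93 and 14.00, and OLE1, the desaturase, had 13.85 and 13.52. INO1, which makes inositol when none is supplied, was dim at 4.32 on array 1 and 6.82 on array 2. INO1 thus stood apart from the rest of the lipid list on both arrays and was more than 2-fold lower on array 1.

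Amino acid biosynthesis had a median percentile of 85.9 over 63 genes, with 42 in the top 25% and 1 in the bottom 25%. GLN1, the glutamine synthetase, had 14.43 and 14.52, and the asparagine synthetase ASN1 had 14.11 and 13.94. The dimmest members were ARG8 at 8.31 and 8.66 and ARG3 at 8.21 and 8.29, both of arginine synthesis. The transcription factor GCN4, which activates these genes and is itself controlled mostly in translation, had 13.75 and 13.68. Sulfate assimilation and methionine synthesis had a median percentile of 74.4, with MET17 at 14.72 and 14.55 and the sulfate permease SUL1 at 6.51 and 7.08. This list was spread widely, with quartiles of 8.97 and 12.68 on the log2 scale.

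Purine and pyrimidine synthesis had a median percentile of 87.1, with 22 of 28 in the top 25%. URA5 led with 14.34 and 14.18. IMD3 and IMD2, IMP dehydrogenases of GTP synthesis, had 13.72 and 13.80 and 13.37 and 13.81. The probe set of ADE4 lay at the floor on both arrays. The pentose phosphate pathway, a source of NADPH and ribose, had a median percentile of 71.9. TKL1 and GND1 were bright at 13.52 and 13.81 and at 13.86 and 13.45. Their paralogues TKL2, with 7.38 and 8.27, and GND2, with 7.23 and 8.00, were dim on both arrays. Synthesis of heme, thiamine and NAD was in the middle, at a median percentile of 54.9, from BNA1 at 13.24 and 12.74 to THI2, a regulator of thiamine synthesis, at 7.25 and 6.97.

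Among the functions of the plasma membrane and vacuole, proton pumps had a median percentile of 94.2, with 18 of 21 in the top 25%. They energise nutrient uptake and acidify the vacuole. The 16 genes of the vacuolar pump and its assembly had a median percentile of 91.9; VMA3 had 14.41 on array 1 and 14.66 on array 2, and VPH1 14.35 and 14.25. PMA2, the minor copy of the plasma membrane pump, was dim at a mean of 8.83. Proton pump genes were bright on both arrays apart from PMA2 and the assembly factor VMA22, which had 9.74 and 9.13.

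The phosphate regulon, the genes for phosphate uptake and storage, had a median percentile of 87.7, with 15 of 22 in the top 25%. PHO84, the high-affinity phosphate transporter, had 14.85 on array 1 and 14.28 on array 2, a gap that among the 40 brightest genes only RPS28B exceeded, with 14.05 and 14.86. PHO5, the secreted acid phosphatase, had 13.82 and 14.03, and VTC1, of polyphosphate synthesis, had 14.17 and 14.09. PHO84 and PHO5 are classically expressed when phosphate is scarce, and they were among the bright genes on both arrays here. The regulators were dimmer, with PHO4 at 9.66 and 9.69 and PHO2 at 3.58 and 3.86.

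Amino acid and nitrogen permeases had a median percentile of 77.0, with 14 of 25 in the top 25%. GAP1, the general amino acid permease, had 13.28 and 13.49, and BAP2, for branched-chain amino acids, had 13.00 and 13.30. AGP2 lay at the floor on both arrays. Genes for allantoin and other nitrogen sources were lower, at a median percentile of 43.6, with the asparaginase ASP1 at 12.96 and 13.22 and the repressor DAL80 at 4.09 and 7.16. Iron and copper uptake had a median percentile of 56.9, led by CTR2 at 11.99 and 12.17. Drug transporters had 62.3, with SNQ2 at 13.32 and 13.49 and PDR5, the main drug efflux pump, at 13.03 and 13.16.

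Cell wall mannoproteins, the outer proteins of the wall, had a median percentile of 93.8, with 21 of 31 in the top 25%. CCW14 had 14.29 on array 1 and 14.40 on array 2, HSP150 had 14.27 and 14.41 and SED1 had 14.31 and 14.34. Of the 31 genes, 23 were lower on array 1, with a median difference of -0.24, against 54.8% of all genes and a median of -0.07. Enzymes for glucan, chitin and mannan had a median percentile of 78.7 and none in the bottom 25% (0 of 42). SEC53 had 14.53 and 14.62, and FKS1, the glucan synthase, had 14.25 and 14.02. Wall structure and its synthesis were thus both bright.

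Wall proteins of other states were less bright as lists. Flocculins and adhesins, which make cells stick to each other or to surfaces, had a median percentile of 18.3, with 5 of 7 in the bottom 25%. FLO11, the flocculin of filamentous growth, had 7.90 and 8.56. FLO1 had 3.58 and 6.07, FLO5 6.77 and 6.10, and FLO10 7.64 and 7.93. The seripauperins and anaerobic wall genes had a median percentile of 45.3; TIR2 had 11.23 and 11.51, and DAN1 had 6.89 and 7.50. Of these 16 genes, 15 were lower on array 1, with a median difference of -0.47, again beside 54.8% and -0.07 for all genes.

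The secretory pathway was bright. COPI, COPII and Golgi transport had a median percentile of 80.5, with 17 of 28 in the top 25%, from ERV25 at 14.35 and 14.33 to the syntaxin SED5 at 5.02 and 5.08. Entry of proteins into the endoplasmic reticulum had 77.4 and no gene in the bottom 25% (0 of 30). PDI1, the disulfide isomerase, had 13.51 and 13.19. Vacuolar proteases had a median percentile of 76.1; APE3 had 14.15 and 14.38, and PEP4, which activates the others, had 13.08 and 13.74.

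Chaperones of the HSP70, HSP90, HSP60 and HSP100 families had a median percentile of 91.1, with 18 of 26 in the top 25%. SSA2, a constitutive HSP70, had 14.70 on array 1 and 14.71 on array 2. HSC82, the constitutive HSP90, had 13.82 and 13.76. SSA3, an HSP70 made under stress, had 3.58 and 5.33. SSQ1 and ECM10, HSP70 proteins of mitochondria, had 7.48 and 7.06 and 7.95 and 8.10. These 3 were the members in the bottom 25%. The chaperonin CCT, which folds actin and tubulin, had a median percentile of 86.6 over 8 genes, and its partner prefoldin 57.8 over 6.

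Stress genes were spread over the whole range. Small and membrane stress proteins had a median percentile of 68.7, with 10 of 24 in the top 25% and 5 in the bottom 25%. YGP1, a secreted glycoprotein, had 14.28 and 14.46, and DDR48 had 13.87 and 14.38. HSP12, the small membrane stress protein under control of protein kinase A, had 9.99 on array 1 and 10.37 on array 2, at percentile 58.8. SIP18 lay at the floor on both arrays. YGP1 was thus bright, HSP12 near the middle and SIP18 at the bottom.

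Redox and peroxide defence had a median percentile of 79.3. The peroxiredoxins AHP1 and TSA1 had 14.08 and 14.19 and 14.00 and 14.07. The catalases CTT1, of the cytosol, and CTA1, of the peroxisome, were dim at 7.44 and 6.46 and at 6.74 and 7.06. Trehalose and glycogen metabolism had a median percentile of 40.8, led by UGP1 at 12.53 and 12.15 and TPS1, the trehalose synthase, at 11.92 and 12.10. GLG1, which primes glycogen, was the dimmest at 6.44 and 6.28. Glycerol metabolism had 64.2, with GPP1 at 13.28 and 13.46 and the glycerol transporter STL1 at 5.69 and 4.65.

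Protein turnover divided by route. Proteasome subunits had a median percentile of 84.5, with 27 of 36 in the top 25% and none in the bottom 25% (0 of 36). The 14 genes of the core particle had 89.9 and the 19 of the regulatory particle 80.6. PUP3, of the core, had 13.62 on array 1 and 13.58 on array 2. Ubiquitin conjugation had 49.7, led by UBC4 at 13.59 and 12.88. Autophagy was dim, at a median percentile of 23.0, with 19 of 36 in the bottom 25%. ATG8, which coats the autophagosome, was the brightest of them at 11.69 and 12.07, and ATG16 had 6.13 and 3.58. Peroxisomes and fatty acid oxidation had 28.9, with the oxidase POX1 at 5.60 and 5.53.

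Genes of nuclear regulation lay below the median of all genes as lists, with exceptions. The list named core histones had a median percentile of 83.2 over 4 measured genes. It held HTB1, with 13.60 and 13.78 and at percentile 96.7, and HTB2 at percentile 95.5. The linker histone HHO1, at percentile 71.0, and the variant histone HTZ1, at 69.2, were counted in it too. Probe sets shared between the copies of the other histones were not ranked, such as one of HHT1 and HHT2 at 14.67 and 14.91, named after its values were seen. Nucleoporins had a median percentile of 54.3 over 29 genes, and transport receptors and the Ran cycle 70.3 over 16, with the Ran GTPase GSP1 at 13.78 and 14.03. Splicing had 39.0, the Mediator complex 41.4, and SAGA, TFIID and related acetyltransferases 37.0. SNU13, a splicing protein that also serves in snoRNA particles, was far above the splicing list at 14.42 and 14.35.

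DNA-binding transcription regulators had a median percentile of 38.7 over 67 genes, with 18 in the bottom 25%. After GCN4 came HAP1, the heme-responsive activator, at 12.17 and 12.40, the brightest of its 3 probe sets, and its percentile shifted by 66.2 points when only plain probe set names were kept. MIG3 and CAT8, the activator of gluconeogenic genes, lay at the floor on both arrays, and RGT1, the repressor of hexose transporter genes, had 3.58 and 3.97. Chromatin remodelling and silencing had 35.8, and mRNA decay 60.1.

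The machinery of chromosome duplication was near or below the middle. DNA replication had a median percentile of 44.1 over 53 genes. Within it ribonucleotide reductase, which makes deoxynucleotides, had 87.2 over 4 genes, the MCM helicase 40.3 over 6 and the origin recognition complex 37.4 over 6. RNR4 had 13.18 on array 1 and 12.96 on array 2, while CDC6, which loads the helicase in G1, had 6.04 and 3.58. The lower lists were DNA repair and recombination at 20.8, kinetochore and spindle checkpoint at 19.2 and cohesin and condensin at 22.0. MCD1, the cohesin ring subunit known to peak in S phase, had 5.44 and 5.25. In a mixed population, transcripts made in 1 short phase and transcripts that are rare in every cell cannot be told apart.

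Cell cycle control had similar levels. Cyclins and their kinases had a median percentile of 49.7, led by PHO85 at 11.30 and 12.02 and CDC28, the main cell cycle kinase, at 11.23 and 11.69. Of these 24 genes, 20 were lower on array 1, against 54.8% of all genes. CLN3, the cyclin that acts first at Start, had 11.29 on array 1 and 11.43 on array 2. The S-phase cyclin CLB6 had 4.94 and 5.48. Regulators of Start and cell size had 33.4, with CLN3 the brightest, SCH9, a kinase that couples nutrients to size, at 9.15 and 9.55, SWI4, a transcription factor of Start, at 5.22 and 5.67 and WHI4 at 3.67 and 3.62. CLN3 was the only 1 of these 15 genes in the top 25%. The list was at percentile 27.3 on array 1 and 40.2 on array 2, the largest gap of the 73 lists.

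The glucose-sensing genes of the study's title were of middle brightness. GPR1 (YDL035C), the receptor, had 9.84 on array 1 and 10.26 on array 2, at percentile 56.0. GPA2 (YER020W), the G protein alpha subunit that acts with it, had 11.03 and 11.12, at percentile 73.4. The cAMP and protein kinase A list to which they belong had a median percentile of 46.1 over 25 genes, with 5 in the top 25%. ASC1, a ribosome-associated protein counted in this list as well as among ribosomal proteins, led with 14.59 and 14.24. RAS2 had 12.29 and 12.66, and BCY1, the regulatory subunit of protein kinase A, had 11.69 and 12.55. CDC25, the exchange factor of Ras, was dim at 8.32 and 8.20, and its relative SDC25 had 4.35 and 3.84.

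Other signalling lists lay near or below the median. Glucose sensing and the Snf1 pathway had a median percentile of 29.8, with HXK2 and the phosphatase GLC7, at 12.34 and 12.60, at its upper end. The glucose sensor SNF3 was dim with 6.57 and 6.28. MAP kinase pathways had 49.5, with RHO1 at 13.83 and 14.04 and HOG1 at 12.89 and 13.09. Septins and bud site selection had 46.9; CDC42, the polarity GTPase, led with 14.09 on array 1 and 12.31 on array 2, more than 2-fold apart. The actin and tubulin cytoskeleton had 77.8, with ACT1 at 14.29 and 14.62 and cofilin, COF1, at 14.36 and 14.11.

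Mating-type genes were compared with the strain name. The a-specific genes had a median percentile of 75.8 over 7 genes, and 4 of the 7 lay in the top 25%. MFA2 and MFA1, which encode a-factor, had 13.58 and 13.47 and 13.47 and 12.13. MFA1 was more than 2-fold apart, and its probe set carries a name ending that marks probes shared within a gene family. With only plain probe set names kept, the a-specific list left the top 25%. STE2, the receptor for alpha-factor, had 11.97 on array 1 and 11.66 on array 2, and the protease BAR1 10.94 and 11.54. AGA2 had 10.39 and 10.63, STE6, the a-factor exporter, 8.94 and 9.55, and ASG7 3.58 and 3.69. So 5 of the 7 were above the median of all genes on both arrays, STE6 was below it and ASG7 was near the floor.

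The alpha-specific genes were dimmer, with a median percentile of 11.7 over 4 measured genes, of which 3 lay in the bottom 25%. SAG1, the alpha-agglutinin, had 9.16 and 9.20. STE3, the receptor for a-factor, had 6.47 and 6.76, MF(ALPHA)2 had 7.03 and 7.49 and MF(ALPHA)1 had 5.29 and 7.47. None was at the floor on both arrays (0 of 4, against 2.12% of all genes). All 4 were lower on array 1, against 54.8% of all genes. The a-specific markers were thus mostly present and the alpha-specific markers mostly low. The pheromone response list, whose genes are induced by mating factor, had a median percentile of 33.7, with the G beta gene STE4 at 12.14 and 12.03 and PRM3 at 4.02 and 4.96.

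Meiosis and sporulation genes were the dimmest nuclear lists. Of 36 meiosis genes, 30 lay in the bottom 25% and 8 at the floor on both arrays, and the median percentile was 6.96. SPO11, which makes the DNA breaks of meiosis, lay at the floor, as did REC114 and SAE3. IME1, the inducer of meiosis, had 8.45 on array 1 and 8.94 on array 2. Of 33 sporulation genes, 30 lay in the bottom 25% and 6 at the floor, and the median percentile was 6.10. The 3 others were SPR6, with 11.58 and 10.48, SGA1, a glucoamylase of spores, with 8.69 and 9.64, and SPO73, with 8.70 and 8.25.

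The marker genes that W303 carries in mutant form all lay above the floor on both arrays, as did most genes. Over all 5656 genes, 2.12% lay at the floor on both arrays, 48 genes on array 1 only and 63 on array 2 only. LEU2 had 13.75 on array 1 and 13.91 on array 2, and URA3 had 11.23 and 11.47. CAN1, the arginine permease, had 10.34 and 11.18, and ADE2 10.17 and 10.88. HIS3 had 9.12 and 9.09, and TRP1 9.47 and 8.39. LEU2 was far above the rest, and TRP1, the only 1 of the 6 more than 2-fold apart, was higher on array 1. A signal here reads the transcript and says nothing of whether the allele works.

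The genes on which the arrays disagreed most were taken where the brighter array was above the median of all genes, 10 in each direction. Among those lower on array 1, RPL21B, RPS21A and RPL37A, the last with 10.21 on array 1 and 14.49 on array 2, had differences (array 1 minus array 2) of -10.87, -6.97 and -4.28 on the log2 scale. ARF1 had 12.36 and 14.40, and RPS21B had 12.63 and 14.46. The differences of BIG1, SMF3, SSA1, PHO89 and AIM46 ran between -1.77 and -1.24. Ribosomal protein genes made up 4 of these 10, against 1.43% of all genes, and all 4 were near the top of the scale on array 2. Only genes above the median of all genes on the brighter array could enter, and the ribosomal protein list had a median percentile of 98.1. The share of that list in this narrower pool was not counted. The probe sets of RPS21A and RPS21B do not have plain names.

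Among the genes higher on array 1, OLI1 differed most, deposited as 7954.7 on array 1 and 5.6 on array 2. Its other probe set lay at the floor on both arrays. LEC1 had 10.07 and 6.85, and HTS1, the histidyl-tRNA synthetase, had 12.51 and 9.91. YPT6, a Golgi GTPase, had 9.95 and 7.53, and all 3 of its probe sets were higher on array 1. ECM22, KRE6 and NOP56 differed by 2.36, 2.36 and 2.35. The other 3 were RNAs that are not translated, namely SNR67, RDN18-1 and YNCL0044W.

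Untranslated RNAs differed between the arrays as classes. All 4 ribosomal RNA genes in the ranking were more than 2-fold higher on array 1, with a median difference of 1.52. Of 57 small nucleolar RNAs, 38 were higher on array 1, against 43% of all genes, with 21 more than 2-fold higher and 1 more than 2-fold lower, with a median difference of 0.66. Of 91 tRNAs, 64 were higher, 26 more than 2-fold higher and 6 more than 2-fold lower, with a median difference of 0.33. Most tRNA probe sets carry a name ending that marks probes shared within a gene family. The 91 tRNA values may therefore repeat the same signal. Small nucleolar RNAs and tRNAs were both dim. In the bottom 10% of all genes 126 of 566 were more than 2-fold higher on array 1 and 78 more than 2-fold lower. In the next 10%, which holds the small nucleolar RNA median, these counts were 68 and 41 of 566. In the 10% after that, which holds the tRNA median, they were 42 and 18 of 565. Protein-coding genes leaned the other way, with 2316 of 5486 higher on array 1 and a median difference of -0.09.

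**Figure D5:**
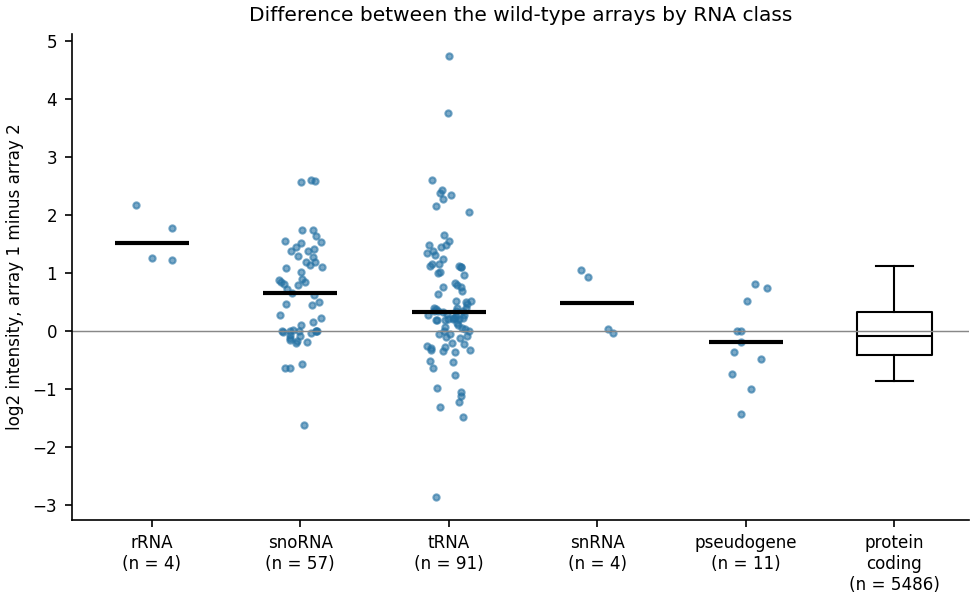
Each point is 1 gene, with its difference in log2 intensity between the arrays (array 1 minus array 2) on the y axis and its RNA class on the x axis; bars mark class medians, and for protein-coding genes the box gives the quartiles and the whiskers the 5th and 95th percentiles. All 4 ribosomal RNA genes lie above 1, the small nucleolar RNA median is 0.66 and the tRNA median 0.33, and the protein-coding median is -0.09. Most tRNA points come from probe sets whose name ending marks probes shared within a gene family.

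The ribosomal RNA controls moved with these classes, and the spike-in controls did not. All 10 ribosomal RNA controls were deposited higher on array 1, by a ratio of 1.91 to 6.48 and a median of 3.50. The 9 bacterial and phage spike-in probe sets had ratios of 1.01 to 1.72 with a median of 1.38, and the medians of all other probe sets a ratio of 1.51. For SPT15, the 3′ probe set over the 5′ one gave 3.16 on array 1 and 10.3 on array 2. For ACT1 this ratio was 1.26 and 1.29, and for SRB4 2.13 and 1.68. The part of RNA quality, priming or labelling in the differences between the arrays was not tested.

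Level was also set beside features the ranking did not use. Across 5486 protein-coding genes, coding length, introns included, and mean log2 intensity had a Spearman's rho of -0.20. Without the ribosomal protein genes it was -0.18 over 5405 genes. Of 5 groups of equal size by length, the shortest had a median percentile of 64.3 and the longest 39.5, with 58.3, 51.9 and 43.8 between. The 100 brightest genes had a median length of 809.5 bases, against 1249.5 for all. The dimmest 10% broke the order: their median length was 1167 bases, shorter than the 1587 bases of the next 10%. Probes of short and long genes can differ in other ways, and their part was not tested.

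Genes that still have only a systematic name, which are mostly of unknown function, were dimmer. The 444 such protein-coding genes had a median percentile of 31.3, and 41.7% lay in the bottom 25%, against a median percentile of 52.3 and 22.4% for 5042 genes with a symbol. With untranslated RNAs and pseudogenes counted too, entries with only a systematic name made up 21.2% of the dimmest 10% and 3.89% of the brightest 10%. Small nucleolar RNAs had a median percentile of 12.5 and tRNAs 22.4. The RNA classes and the named and unnamed genes differ in length and in probe design, so these positions are places in the brightness order.

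Probe sets outside the ranking were compared last, and the choice of those named here followed a look at their values. The 328 that name several genes were bright, with a median log2 intensity of 10.81, and 156 of them (47.6%) lay above the 75th percentile of the ranked genes. The brightest was shared by RPL8A and RPL8B, with 15.01 on both arrays, above RPL5. The elongation factor genes TEF1 and TEF2 shared a probe set at 14.58 on array 1 and 14.49 on array 2, and the translocation factor genes EFT1 and EFT2 one at 13.67 and 13.89. Near-identical copies of highly expressed genes are thus missing from the ranked list, among them ribosomal protein pairs, histones and elongation factors. The 2443 probe sets that name no gene here had a median of 5.93, and 459 of them lay at the floor on both arrays.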

How the data were processed

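Total RNA of 6 yeast samples was hybridised to single-colour oligonucleotide arrays, and only the 2 wild-type arrays were ranked. The values were intensities, 1 per probe set on a linear scale, as deposited by the authors. The method of summary and scaling was not given in the sources used here, and 3 probe sets on each array were deposited as 0. All columns were mapped to samples by title, with 0 left over.

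The 9275 non-control probe sets of the 2 wild-type arrays were quantile normalised, raised to a floor at their pooled 10th percentile (11.95; 3.58 on the log2 scale) and transformed to log2. Probe sets were named from the platform annotation, and all 6504 that name 1 gene matched RefSeq by identifier, with 0 symbols updated. Ranks, percentiles and list medians were computed in Python 3.11.15 with numpy 2.4.6, pandas 2.3.3 and scipy 1.17.1, and the procedure was tested on simulated data. The precision is limited by the number of arrays. Replicate numbers are those of the sample titles.

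The members and the 73 lists, which leave 44 of their gene symbols without a value, were chosen with earlier results of these data known. Named genes are the 40 brightest, up to 7 from the ends of each list, the 10 largest array differences each way, all genes of the carbon, mating-type, marker and mitochondrially encoded lists, and GPR1, GPA2, ACT1 and HSP12. Alternatives changed the normalisation, the floor, a filter on dim genes and the probe set per gene, and left out either array. No sequences were used here.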

Additional observations from a re-analysis of the deposited data

How the results depend on the processing

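Of the list counts, 29 of 73 list medians lay in the top 25% with either array left out, 10 to 11 in the bottom 25%, and 40 ribosomal protein genes stood among the 100 brightest, against 38 with both. With plain probe set names only, 31 ribosomal protein genes stood there, and 84 of the 100 brightest genes were shared with the reported ones. In that setting 28 list medians lay in the top 25% and 12 in the bottom 25%. The mean over probe sets gave 36 ribosomal protein genes and 28 and 11 list medians. The list order had a Spearman's rho of 0.981 to 1.0 with the reported order over all alternatives. Genes more than 2-fold apart numbered 1286 (1254 higher and 32 lower on array 1) on the values as deposited. With the floor at the 25th percentile 390 were apart, 98 of them lower on array 1. Among genes over the 25th percentile 255 were apart, 202 higher and 53 lower. Fewer dim genes enter these 2 counts by construction; the cause of the split was not tested. Lists leaving the top 25% were a-specific genes (array 1 alone, plain probe sets), permeases (array 2 alone), and redox defence and fermentation (mean over probe sets; fermentation at 69.5 in place of 81.6). Those entering it were the pentose phosphate pathway (array 1 alone) and sulfate assimilation (array 2 alone, mean over probe sets). Galactose and maltose use left the bottom 25% (array 2 alone) and hexose transporters entered it (plain probe sets). The percentile of RPL21B shifted by 63.0 points on array 2 alone and that of OLI1 by 67.8 on array 1 alone. No paired analysis was possible because only 1 group was used. Dim genes are limited by the floor.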

Other observations

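Of the 100 brightest genes, 15 belong to none of the 73 lists and were named after their values were seen. EGD1 and EGD2, the subunits of the complex that meets nascent proteins at the ribosome, had 14.54 on array 1 and 13.97 on array 2, and 14.13 and 14.35. STM1, a protein that binds ribosomes, had 14.45 and 13.90. YHB1, the flavohaemoglobin that detoxifies nitric oxide, had 14.38 and 14.36, and it was read by 4 probe sets. TMA19, a ribosome-associated protein, had 14.36 and 14.61, and it is also among the 40 brightest. All 5 were within 2-fold between the arrays, as were all of the 100 brightest genes. The choice by the mean of both arrays largely fixes this.

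Small nucleolar RNAs, which guide the modification of ribosomal RNA, ranged widely; those named here were chosen after their values were seen. SNR44 had 12.81 on array 1 and 12.15 on array 2, and it was the only 1 of 57 in the top 25%, while 36 lay in the bottom 25% and 6 at the floor on both arrays. Of 11 pseudogenes, 8 lay in the bottom 25%. The telomerase RNA, TLC1, lay near the median of all genes, at percentile 52.7.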
